A study of Saccharomyces cerevisiae with 12 samples.

Results

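The DAL genes of budding yeast (Saccharomyces cerevisiae) lie next to one another on the right arm of chromosome 9, and acetylated histone H4 (AcH4) over them is described here by the 76 tiling probes, of 41480 nuclear probes, whose centres fall between 400 and 420 kb of that chromosome (genome build sacCer1, the build of the probe positions). The stretch was chosen by a measured value: the rise of AcH4 in rsc2Δ over wild type was at its largest near its middle, so the rsc2Δ minus wild type values below describe the choice and carry no test. The 3 neighbouring probes of that rise, from chr9:407488 to chr9:408262, are called the core. The flanks are the 134 probes in the 20 kb on each side of the stretch, as far as the chromosome reaches (71 left, 63 right).

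The data came from chromatin immunoprecipitation (ChIP) with an antibody against acetylated histone H4, hybridised to 2-colour Agilent yeast tiling arrays with the immunoprecipitated DNA (IP) in Cy5 and the input DNA in Cy3. There were 12 arrays, with 3 replicates of each of 4 haploid strains grown in rich YPD medium: rsc2Δ, which lacks 1 of the alternative bromodomain subunits of the RSC chromatin remodelling complex, rsc1Δ, which lacks the other, rco1Δ (rco1Δ::KANMX6), which lacks a subunit of the Rpd3S histone deacetylase, and the BY4741 wild type (MATa his3Δ1 leu2Δ0 met15Δ0 ura3Δ0). Further alleles and clone numbers of the rsc1Δ and rsc2Δ array strains are not given in the sources used here. Values are log2 ratios of IP over input with the median of each array at 0, so that 1 unit is a doubling, and a value below 0 means less AcH4 than at the middle probe of that array.

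The DAL genes let the cell use allantoin, a breakdown product of purines, as a nitrogen source. They are a textbook case of nitrogen catabolite repression: in media rich in nitrogen the GATA activators Gln3 and Gat1 are held back and the genes are little transcribed, and with allantoin as the nitrogen source the activators and the Dal81 and Dal82 proteins switch them on. Histone H4 acetylation is usually high at promoters and early coding regions of active genes, and Rpd3S removes it from the bodies of transcribed genes. RSC moves and evicts nucleosomes at promoters.

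By the gene table the 6 genes from YIR027C to YIR032C follow each other with none between, and 5 of them are DAL genes. The order is DAL1 (allantoinase, the first step of allantoin breakdown), DAL4 (the allantoin permease), DAL2 (allantoicase), DCG1 (a gene sensitive to nitrogen repression, of unknown function), DAL7 (a malate synthase) and DAL3 (ureidoglycolate lyase). YVH1, a protein phosphatase gene, precedes DAL1 and MGA2, which encodes an activator of the fatty acid desaturase gene, follows DAL3. The last letter of each systematic name gives the strand, C (Crick) for DAL1, DCG1, DAL7 and DAL3 and W (Watson) for DAL4 and DAL2, so DAL1 and DAL4 are divergent and share an upstream region, DAL2 and DCG1 converge, and DCG1, DAL7 and DAL3 run in tandem. The files name no gene for a probe and the gene table is of another build, so probes are given below by position, and the gene under each one was not determined.

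IP signal was well above background at between 81.8% and 98.4% of all probes per array, and input signal at between 78.9% (rco1Δ replicate 3) and 99.8%. Among the 76 members the input was not well above background on all 3 arrays at 3 probes in rsc2Δ, 8 in rsc1Δ, 20 in rco1Δ and 0 in wild type, and how far this moves the rco1Δ ratios was not tested. In all, 1 of the 912 member values was left out as an outlier spot. Input DNA was lost over 1 long run of probes in each mutant, on chromosome 7 in rsc1Δ, 12 in rsc2Δ and 13 in rco1Δ, as a gene deletion gives. The arrays were scanned in 7 scans: the first held replicate 1 of rsc2Δ and of rsc1Δ with wild type replicates 1 and 2, 2 others each held 1 rsc1Δ and 1 rsc2Δ array, and no rco1Δ array shared a scan with wild type, so scan and rco1Δ cannot be told apart. The study's methods describe the replicates as biological repeats, and the labels give only their numbers.

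**Figure D1:**
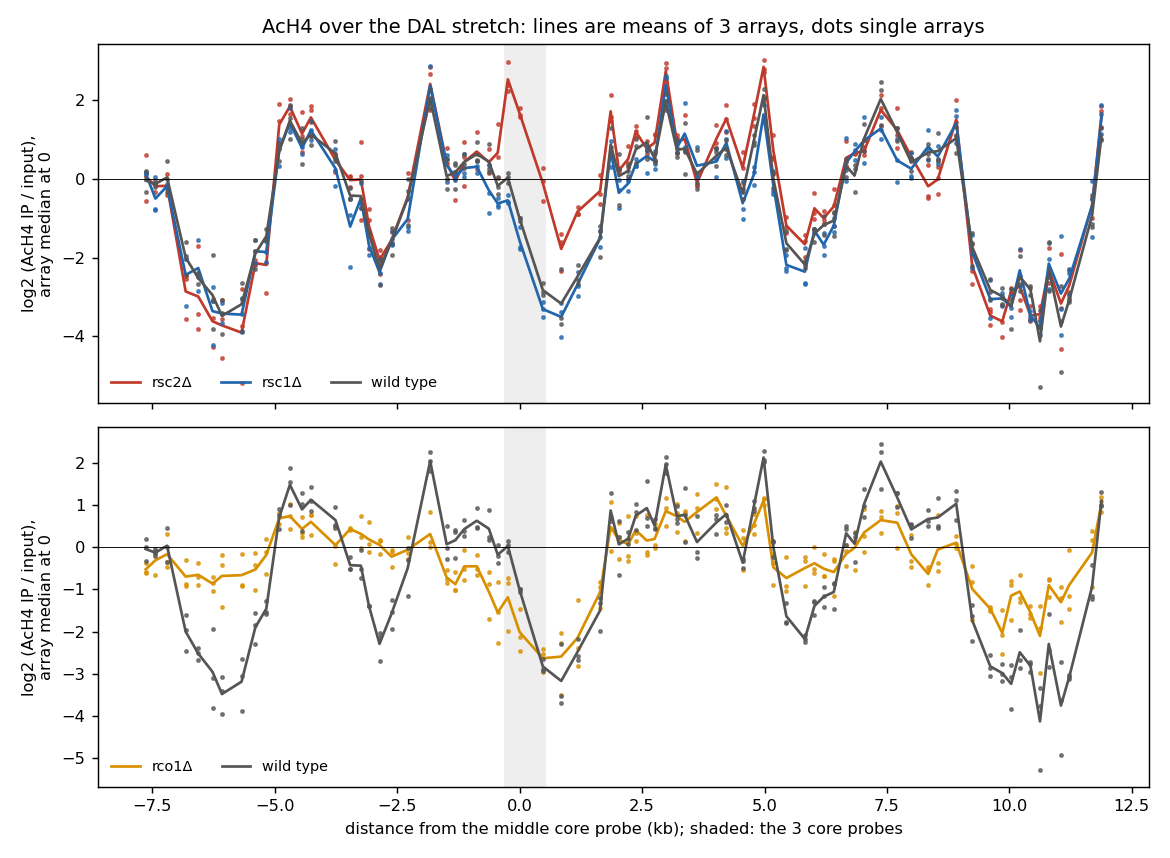
Log2 ratio of AcH4 IP over input along the stretch, by distance in kb from the middle core probe, for rsc2Δ and rsc1Δ with wild type (upper panel) and rco1Δ with wild type (lower panel). Lines are means of 3 arrays, dots are single arrays and the shaded band holds the 3 core probes, where rsc2Δ reached a mean of 1.36 and wild type −1.27.

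The profile in wild type was a series of AcH4-rich and AcH4-poor blocks, and rsc2Δ had the same blocks but for the core and the trough beside it. At the first and middle core probes rsc2Δ was AcH4-rich, with means of 2.53 and 1.66, against 0.03 and −1.02 in wild type. From the last core probe on, the trough was deep in the other strains and shallower in rsc2Δ. At the first core probe (chr9:407488-407547) the log2 ratios were 2.98, 2.38 and 2.23 in rsc2Δ, against −0.11, 0.15 and 0.05 in wild type. At the middle core probe (chr9:407729-407788) they were 1.81, 1.56 and 1.62 in rsc2Δ, against −0.99, −0.99 and −1.06 in wild type. At the last core probe (chr9:408203-408262) they were −0.56, 0.27 and −0.04 in rsc2Δ, against −2.88, −2.66 and −2.95 in wild type. All 3 rsc2Δ arrays lay above all 3 wild type arrays at each of these probes, by 2.50, 2.68 and 2.72 on average, and the last difference was the largest of the 76. At the last core probe the IP was well above background on 3 of 3 rsc2Δ arrays and on 2 of 3 wild type arrays.

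The rise had a sharp left edge and a gradual right one. Immediately left of the core (chr9:407281-407340) rsc2Δ had 0.55, 1.40 and 0.04 against 0.06, −0.38 and −0.20 in wild type, and the groups overlapped. One probe further left (chr9:407101-407158) the values were 0.35, 0.76 and 0.16 in rsc2Δ and 0.89, 0.18 and 0.25 in wild type, which on average differ by −0.02. The step up to the first core probe thus took place within 2 probe intervals.

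To the right the IP at the next probe (chr9:408577-408636) was not well above background on any array of rsc1Δ, rco1Δ or wild type, and on 1 of 3 rsc2Δ arrays, so its ratios of −2.33, −1.40 and −1.61 in rsc2Δ and −2.29, −3.53 and −3.69 in wild type carry no fold change. At chr9:408912-408967 the ratios were −0.90, −0.72 and −0.89 in rsc2Δ and −2.58, −2.19 and −2.68 in wild type. At chr9:409371-409429 they were −0.64, 0.09 and −0.39 in rsc2Δ and −1.98, −1.32 and −1.20 in wild type. The difference shrank with distance, to 1.65 and 1.19 at these last 2 probes and 0.85 at chr9:409588-409645, and rsc2Δ and wild type did not overlap at any of these 3 probes.

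**Figure D2:**
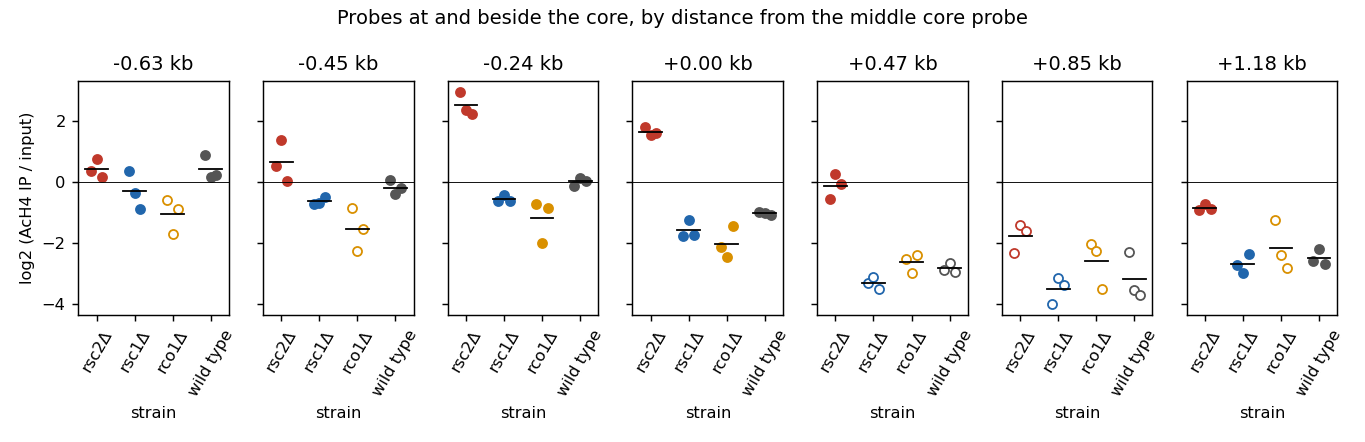
Log2 ratio of AcH4 IP over input on each array (dots) with the group mean (line), for the 7 probes from chr9:407101 to chr9:408967, titled by distance from the middle core probe. Open dots mark a strain whose IP was not well above background on all 3 arrays, and the rsc2Δ dots lie above all others at −0.24, 0.00, +0.47 and +1.18 kb.

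The 2 channels show where the ratio moved. Over the 3 core probes the centred log2 IP signal was 1.78, 1.61 and 1.96 in rsc2Δ, against −0.86, −0.99 and −1.19 in wild type. The centred log2 input signal was 0.21, 0.10 and 0.51 in rsc2Δ, against 0.34, 0.03 and −0.01 in wild type. The IP channel thus differed by 2.80 (7.0-fold) with no overlap, and the input channel by 0.16 with the groups overlapping. No measure of total histone H4 was part of these data, so more H4 at the probes and more acetylation of each H4 cannot be told apart.

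**Figure D3:**
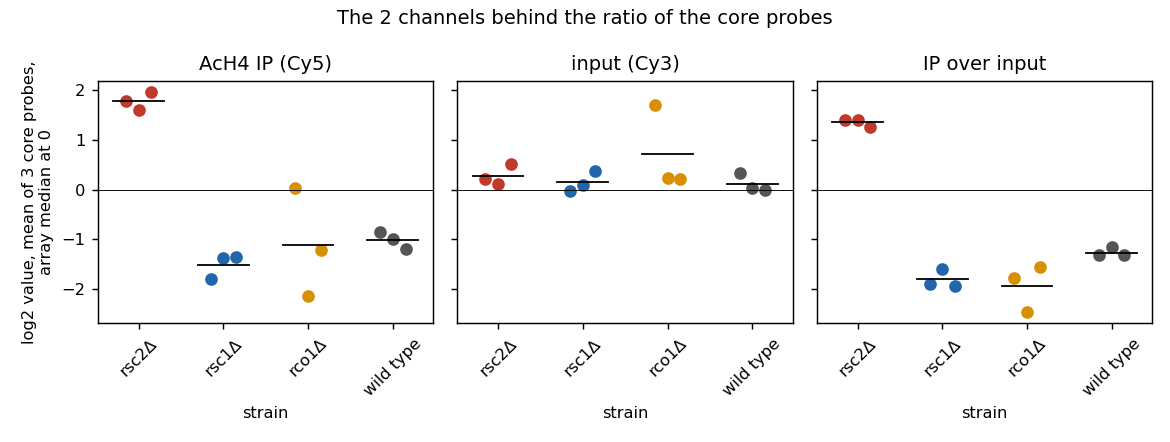
Centred log2 signal of the AcH4 IP (Cy5), the input (Cy3) and their ratio, each the mean of the 3 core probes, on every array (dots) with the group mean (line). The rsc2Δ arrays stand apart in the IP, at 1.61 to 1.96, and lie among the other strains in the input, where rco1Δ replicate 1 stands apart at 1.71.

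Set against its flanks, the core was 1.44, 1.44 and 1.30 in rsc2Δ and −1.32, −1.05 and −1.24 in wild type, means of 1.39 ± 0.083 and −1.20 ± 0.14 (SD, n = 3 each). The difference was 2.60 on the log2 scale (6.0-fold), and within the one scan that held both strains it was 2.63. Its size depended on the background treatment: it was 1.65 with normexp background correction and 0.90 with loess on top of it, with rsc2Δ higher in each. The flanks themselves averaged −0.031 ± 0.0032 in rsc2Δ and −0.068 ± 0.053 in wild type (SD, n = 3 each).

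Over the whole stretch the rise was small. The mean of the 76 probes less the flanks was −0.44, −0.15 and −0.27 in rsc2Δ and −0.50, −0.56 and −0.49 in wild type, a difference of 0.23, which was 0.091 within the shared scan. In limma with Benjamini-Hochberg adjustment over all 41480 probes, 4 member probes were called higher in rsc2Δ, where 0.154% of all probes were, and 0 lower, where 0.374% of all were; at an unadjusted p under 0.05 the numbers were 15 and 5, where 6.36% and 7.78% of all probes were. These 4 are the 3 core probes and chr9:408912-408967, and the rule that chose the stretch used this contrast, so nothing is read from the counts. The median difference was 0.25 over the members and 0.03 over all probes.

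Outside the core the changes in rsc2Δ were of mixed sign, with more probes higher than lower. All 3 rsc2Δ arrays lay above all 3 wild type arrays at 16 of 72 member probes outside the core that were measured on every array (12.4% of all probes) and below at 6 (12.2% of all). With the core included, 25.3% of the members lay above and 8.0% below. The 16 include chr9:408912-408967, chr9:409371-409429 and chr9:409588-409645, right of the core. The rule that chose the stretch used this contrast, so nothing is read from these counts. Besides the core block, a run of 5 neighbouring probes from chr9:411949 to chr9:412967 was higher in rsc2Δ, by between 0.64 and 0.74. The middle probe of that run (chr9:412509-412568) had 1.56, 1.35 and 1.91 in rsc2Δ and 0.93, 1.11 and 0.86 in wild type. In the other direction, chr9:416071-416129 had −0.49, 0.37 and −0.43 in rsc2Δ against 0.63, 0.50 and 0.89 in wild type, and the neighbouring chr9:416265-416324 was also lower by 0.72 without overlap. The largest fall, 0.86, was at chr9:400909-400968, where the IP was well above background on 1 of 3 rsc2Δ arrays and 2 of 3 wild type arrays.

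The ends of the stretch were not set by the change. The outermost probes inside differed between rsc2Δ and wild type by 0.11 (left) and 0.53 (right), and the nearest probes outside by 0.22 and −0.33. At the ends of the core, the probes just inside differed by 2.50 (left) and 2.72 (right) and those just outside by 0.84 and 1.39. The 1.39 is that of chr9:408577-408636, where the dim IP allows no fold change, and rsc2Δ and wild type overlapped at both outside probes.

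The rsc1Δ arrays did not share the rise, and at the core they lay below wild type. At the first core probe rsc1Δ had −0.62, −0.42 and −0.60, below the wild type values of −0.11, 0.15 and 0.05. At the middle core probe rsc1Δ had −1.77, −1.24 and −1.73, below −0.99, −0.99 and −1.06 in wild type. At the last core probe rsc1Δ had −3.30, −3.13 and −3.51, where the IP was well above background on 1 of 3 arrays, below −2.88, −2.66 and −2.95 in wild type. The 3 differences, −0.58, −0.56 and −0.48, were of like size, and at each probe the strains did not overlap. Of the 75 members measured on every array, all 3 rsc1Δ arrays lay below all 3 wild type arrays at 9 (7.35% of all probes) and above at 2 (8.92% of all), and 4 of the 9 are neighbours from chr9:407281 to chr9:408262.

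No single probe of the stretch passed the test in rsc1Δ. In limma with adjustment over all 41480 probes 0 members were called higher, where 0.0482% of all probes were, and 0 lower, where 0.0603% of all were; at an unadjusted p under 0.05, 0 were higher (4.39% of all probes) and 4 lower (5.26% of members, 3.66% of all probes). The core less the flanks was −1.73, −1.53 and −1.88 in rsc1Δ and −1.32, −1.05 and −1.24 in wild type, a difference of −0.51 (two-sided exact permutation test, p = 0.1, n = 3 each). That p is the smallest that 3 against 3 arrays can give. Within the first scan the difference was −0.55, and with loess after normexp it was −0.12 (exact permutation p = 0.6), the smallest over all alternatives, against −0.61 with flanks of 10 kb. The wild type arrays are those on which the stretch was chosen, so this comparison is not independent of the choice.

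In rsc1Δ the lower ratio of the core also lay in the IP channel. Its centred log2 IP signal was −1.80, −1.38 and −1.36 in rsc1Δ and −0.86, −0.99 and −1.19 in wild type, a difference of −0.50 (two-sided exact permutation test, p = 0.1, n = 3 each). The input differed by 0.02 (exact permutation p = 0.8). The largest fall of a member in rsc1Δ lay away from the core, at chr9:412509-412568, with −0.16, 0.29 and 0.18 in rsc1Δ and 0.93, 1.11 and 0.86 in wild type (difference −0.86 ± 0.27 SE, limma adjusted p = 0.38). This is the middle probe of the run that was higher in rsc2Δ. The largest rise, 0.84 ± 0.64 SE at chr9:418783-418839, did not pass the test either (limma adjusted p = 0.76), and the IP there was well above background on 1 of 3 rsc1Δ arrays and 1 of 3 wild type arrays.

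Set directly against each other, rsc1Δ and rsc2Δ differed at the core by more than either differed from wild type. The core less the flanks was −1.72 ± 0.18 in rsc1Δ and 1.39 ± 0.083 in rsc2Δ (SD, n = 3 each), a difference of −3.11, and within the 3 scans that each held 1 array of both strains it was −3.18, −2.97 and −3.18. In limma 6 member probes were called lower in rsc1Δ, where 0.448% of all probes were, and 0 higher, where 0.494% of all were; at an unadjusted p under 0.05 the numbers were 18 and 1, where 5.47% and 6.6% of all probes were. The 6 calls became 2 with plain background subtraction, 1 with normexp and 0 with loess, in the deposited value table or at 1 common spread. The 6 are the 3 core probes, chr9:408912-408967 and the neighbours chr9:412509-412568 and chr9:412709-412768. The count fell to 3 without rsc1Δ replicate 1 and to 3 without rsc2Δ replicate 3. The rsc2Δ arrays are among those that chose the stretch, so the difference at the core describes the choice in part. Nothing is read from the calls at the core or at chr9:408912-408967.

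The pair of neighbours away from the core showed the same order of strains. At chr9:412709-412768, the most AcH4-rich probe of the stretch in rsc2Δ by its mean, the ratios were 3.02, 2.80 and 2.73 in rsc2Δ, 1.45, 1.89 and 1.58 in rsc1Δ, and 2.29, 2.03 and 2.07 in wild type. The 3 strains did not overlap there, nor at chr9:412509-412568.

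The rco1Δ arrays differed from wild type at about the share of probes seen over the genome when both directions were counted. Of the 5 troughs 4 were raised, and a smaller share of probes was lowered in the stretch (19.7%) than over the genome (28.1%). In limma 51.3% of the members were called, against 54.1% of all probes: 24 member probes were called higher, where 26% of all probes were, and 15 lower, where 28.1% of all were. The 39 calls became between 13 and 15 with plain background subtraction, normexp, loess or the deposited value table. All 24 raised probes were among the 32 members whose mean in rsc1Δ was under −1, called AcH4-poor here, and 14 of the 15 lowered ones were among the 44 others. The level in rsc1Δ was used for this split because it takes no part in the difference of rco1Δ from wild type. The rsc1Δ arrays do enter the spread that limma uses. Over the genome 69.2% of AcH4-poor probes were called higher in rco1Δ, and in the stretch 75% (24 of 32), with a median difference of 1.33 in the stretch and 1.39 over all AcH4-poor probes.

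The range of values was narrow on the rco1Δ arrays. The SD over the 76 probes was 0.85, 0.99 and 0.97 on the rco1Δ arrays and 1.63, 1.67 and 1.65 on the wild type arrays, and over all nuclear probes it was 0.95, 0.92 and 1.08 in rco1Δ and 1.54, 1.63 and 1.62 in wild type. How far this narrower range accounts for calls in both directions was not tested. With all arrays brought to 1 common spread, 13 members were called higher and 14 lower in rco1Δ. The split was 5 and 9 with plain background subtraction, 10 and 5 with normexp, 11 and 2 with loess after it, 5 and 8 in the deposited value table, and 10 and 14 among the 48 members well above background on all 6 arrays.

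The largest rise in rco1Δ was at chr9:401650-401709, with −0.19, −0.42 and −1.43 in rco1Δ and −3.09, −3.94 and −3.41 in wild type (difference 2.80 ± 0.39 SE). Its size is uncertain, since the IP there was well above background on 2 of 3 rco1Δ arrays and 1 of 3 wild type arrays, and the input on 2 of 3 rco1Δ arrays. The largest fall was at an AcH4-rich probe left of the core, chr9:405903-405960, with 0.12, 0.00 and 0.83 in rco1Δ and 2.06, 1.81 and 2.27 in wild type (difference −1.73 ± 0.34 SE, limma adjusted p = 0.00059). From this probe to the middle core probe rco1Δ was lower at each of 9 neighbouring probes, all called by limma, and in the 5 other signal treatments each difference kept its sign except at chr9:407281-407340 with plain background subtraction (0.27), though not every one was called.

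The AcH4-poor runs of the stretch were not equally raised in rco1Δ. A run was counted where at least 3 neighbouring probes had a mean under −1 in rsc1Δ, and the stretch held 5 runs. In rco1Δ against wild type, 7 of 7 probes were called higher in the run from chr9:400909 to chr9:402610, 3 of 4 in chr9:404654-405502, 4 of 5 in chr9:413175-414200 and 9 of 10 in chr9:416971-419009. In the run chr9:407729-409429, 0 of 5 were called higher and 1, the middle core probe, was called lower. Over the genome 65 of 919 runs of 5 or more probes (7.1%) had no probe called higher in rco1Δ, and 229 of all 1711 runs (13.4%). The longer runs hold more probes that could be called, and runs of exactly 5 probes were not counted apart.

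The run means show the same contrast. In chr9:407729-409429 the mean was −0.27 ± 0.24 in rsc2Δ, −2.52 ± 0.18 in rsc1Δ, −2.09 ± 0.30 in rco1Δ and −2.20 ± 0.10 in wild type (SD, n = 3 each). In chr9:400909-402610 it was −3.06 ± 0.45 in rsc2Δ, −2.66 ± 0.11 in rsc1Δ, −0.61 ± 0.21 in rco1Δ and −2.50 ± 0.35 in wild type. By its mean the first of these troughs was thus shallow in rsc2Δ alone of the 4 strains, and the second in rco1Δ alone. In rsc2Δ the first mean joins 1.66 at the middle core probe with −1.78 at chr9:408577-408636, where the IP was dim. The counts of called probes do not set the core run apart under every treatment. With plain background subtraction and in the deposited values 0 probes were called higher in rco1Δ in the runs chr9:413175-414200 and chr9:416971-419009 too, and at 1 common spread 1 of 10 was in chr9:416971-419009. In chr9:400909-402610 the count was 1 of 7 in the deposited value table. Only 2 of 7 probes of that run and 1 of 10 of chr9:416971-419009 passed the background limit for IP and input on each of the 6 arrays, against 1 of 5 in the core run. The mean difference of rco1Δ from wild type in the core run was 0.11, and it was −0.06 with plain background subtraction, −1.06 in the deposited value table and −1.68 at 1 common spread, where the other 4 runs had mean differences between 0.23 and 1.62 under these settings. In the core run 1 probe was called higher without rco1Δ replicate 3.

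**Figure D4:**
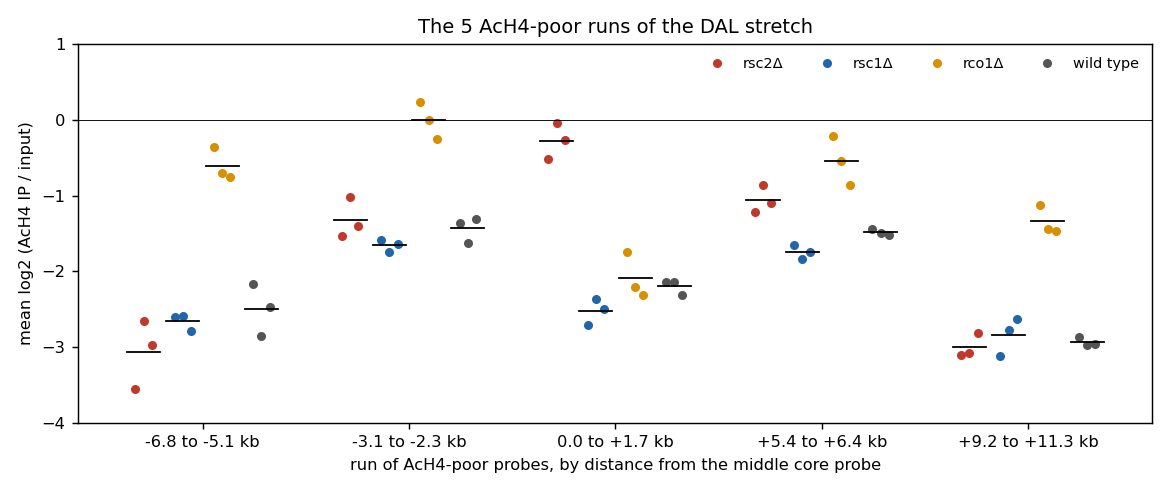
Mean log2 ratio over each of the 5 runs of AcH4-poor probes on every array (dots) with the strain mean (line), by distance of the run from the middle core probe. In the run that starts at the middle core probe rsc2Δ is the highest strain at −0.27, and in the other 4 runs rco1Δ is.

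**Figure D5:**
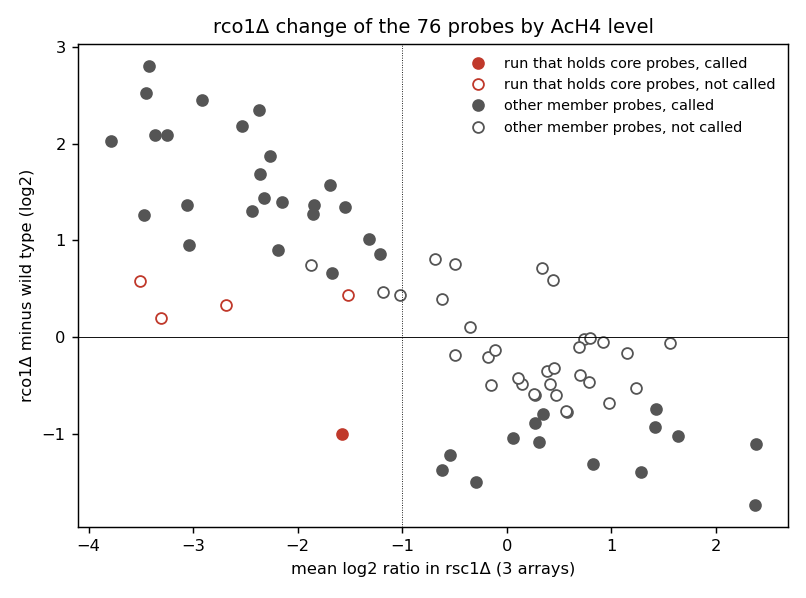
Difference of rco1Δ from wild type (log2) at each of the 76 probes, against the mean log2 ratio in rsc1Δ. Filled dots were called by limma at an adjusted p under 0.05, the dotted line marks −1, and the 5 probes of the run that holds core probes (red) lie below most other AcH4-poor probes.

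At the core itself the mean log2 ratio was lower in rco1Δ than in wild type. The difference was −0.67 with no overlap (two-sided exact permutation test, p = 0.1, n = 3 each). The first and middle core probes were lower without overlap, and the last was 0.20 higher with overlap. The core IP signal differed by −0.098 (exact permutation p = 0.8) and the input by 0.60 (exact permutation p = 0.3), both with overlap. Without rco1Δ replicate 1 these were −0.67 and 0.10, so the channel of the lower ratio was not settled. With the main processing the strains were not told apart once the flanks were taken into account. The core less the flanks was −1.17, −1.72 and −0.97 in rco1Δ and −1.32, −1.05 and −1.24 in wild type, a difference of −0.08 (two-sided exact permutation test, p = 0.9, n = 3 each), and 0.13 without rco1Δ replicate 2. It was −0.47 with flanks of 10 kb, −0.67 with plain background subtraction and −1.43 in the deposited value table (exact permutation p = 0.1 each). At 1 common spread it was −1.25, and among probes well above background −0.60 (exact permutation p = 0.1 each). With normexp it was −0.11, with loess after it −0.15 and with flanks of 40 kb −0.35 (exact permutation p = 0.8, 0.6 and 0.3). The value thus depends on these choices. The flanks were lower in rco1Δ, at −0.66 ± 0.080 against −0.068 ± 0.053 in wild type (SD, n = 3 each, exact permutation p = 0.1). The mean of the whole stretch less the flanks was 0.46, 0.36 and 0.16 in rco1Δ and −0.50, −0.56 and −0.49 in wild type, a difference of 0.84 (two-sided exact permutation test, p = 0.1) that was 0.45 with flanks of 10 kb and 0.33 with medians over probes. Replicate 1 of rco1Δ and replicate 3 of wild type were scanned on the same day, and between them the core less the flanks differed by 0.070 and the stretch less the flanks by 0.95.

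One rco1Δ array was unlike the other 2 in its signals at the first and last core probes and at some probes away from the core. At the first core probe the centred log2 input signal was 3.65, 0.67 and 1.19 in rco1Δ, against 0.37, 0.02 and −0.16 in wild type. The centred log2 IP signal there was 3.03, −1.22 and 0.48 in rco1Δ, against 0.38, 0.32 and 0.02 in wild type. Both channels of replicate 1 were high together, and its ratio of −0.72 lay beside −1.98 and −0.86 on the other arrays. At the middle core probe its centred log2 input of 0.86 lay beside 0.60 and 0.84. At the last core probe its input of 0.63 lay beside −0.55 and −1.41, and its IP of −1.80 beside −3.43 and −3.67. Its ratio there, −2.53, lay beside −2.97 and −2.40. Away from the core, at chr9:412709-412768, its input was 4.87, beside 1.84 and 2.65.

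The difference between rco1Δ and rsc1Δ takes its means from neither group of arrays on which the stretch was chosen. The spread that limma uses does come from all 12 arrays. With the compared arrays only, 32 members were called in either direction, against 37. In limma 28 members were called higher in rco1Δ, where 28.9% of all probes were, and 9 lower, where 33.2% of all were. The core less the flanks was −1.29 ± 0.39 in rco1Δ and −1.72 ± 0.18 in rsc1Δ (SD, n = 3 each), a difference of 0.43 (two-sided exact permutation test, p = 0.2). At the last core probe rco1Δ had −2.53, −2.97 and −2.40 and rsc1Δ −3.30, −3.13 and −3.51, a difference of 0.68 (limma adjusted p = 0.045) with the IP well above background on 1 of 3 arrays of each strain. That difference turned to −2.07 with all arrays at 1 common spread and −2.14 in the deposited value table. The split of calls was 9 and 10 with plain background subtraction, 12 and 2 with loess after normexp, 9 and 9 in the deposited value table, 12 and 16 with all arrays at 1 common spread, and 11 and 10 among the 47 members well above background.

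The places whose pattern over the 12 arrays was most like the mean of the core probes lay on 5 chromosomes. Each place is 3 neighbouring probes averaged, 1 place per 5 kb outside the stretch, ranked by Pearson correlation among 38097 places, and the correlation is given as a description because the arrays of a strain share its level. The highest was at chr4:75861-76547 (r = 0.97), with −0.44 ± 0.15 in rsc2Δ, −1.41 ± 0.17 in rsc1Δ, −1.69 ± 0.18 in rco1Δ and −1.26 ± 0.094 in wild type (SD, n = 3 each). Next came chr2:314736-315189 (r = 0.96), with 1.40 ± 0.31 in rsc2Δ, −0.08 ± 0.27 in rsc1Δ, −0.24 ± 0.19 in rco1Δ and 0.31 ± 0.072 in wild type. The other places were chr16:266854-267395 (r = 0.96), chr13:192773-193291 (r = 0.95) and chr9:32630-33344 (r = 0.95, the other arm of the same chromosome). In each of the 5 places rsc2Δ had the highest mean, which a choice by likeness to the core brings about. Its lead over wild type was at most 1.09, below the 2.63 of the core, which was chosen for its large rise. Nothing is read from either.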

How the data were processed

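The deposited scanner files (Agilent Feature Extraction 10.5.1.1, named in the submitters' processing notes) hold background-subtracted and dye-normalised intensity per spot and channel, and the deposited log10 ratio equals that of these intensities. The authors' log2 value table was a straight-line function of the plainly subtracted log2 ratio, with slopes per array between 0.66 and 1.90. It was used as an alternative only. The study's methods name median normalisation within and Aquantile between arrays, but Aquantile changed the log2 ratios here by 0 at most. The median absolute deviation of the value table was between 0.82 and 0.89 on each array. It is thus near 1 common spread and is not independent of that setting. The step that gave the slopes was not determined. Control spots and outlier-flagged spots were left out, log2(Cy5 IP/Cy3 input) was centred on each array's median, and limma 3.58.1 (R 4.3.3) was fitted to all 12 arrays and 41480 nuclear probes with Benjamini-Hochberg adjustment (call at adjusted p under 0.05), after a test on simulated data. Core and stretch means were compared by exact permutation over arrays (Python 3.11.15, scipy 1.17.1). The replicates number 3 per strain, which limits precision.

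Per-array values are given for the 7 probes from chr9:407101 to chr9:408967, for the largest rise and fall in each mutant and for the probes at the ends. Other probes named were chosen after their values were seen: the neighbours of the core, the neighbours that did not overlap, and the AcH4-poor runs. The members and lists were chosen with earlier results of these data known. Probe positions were not matched to genes, the other nitrogen genes of the genome were therefore not examined, and no sequence is shown. Alternatives tried were the background correction, dye normalisation, value table, array scaling, filters, flank width, blocks and leaving out replicates.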

Additional observations from a re-analysis of the deposited data

Results flagged for a closer look

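Pairs of deletions were set against each other directly. Between rsc1Δ and rsc2Δ limma called 6 member probes, all lower in rsc1Δ, where 0.448% of all probes were lower and 0.494% higher. They were the 3 core probes, chr9:408912-408967 and the pair chr9:412509-412568 and chr9:412709-412768. The calls became 2 with plain background subtraction, 1 with normexp and 0 with loess, in the value table or at equal array spread. The rsc2Δ arrays are among those that chose the stretch, so nothing is read from the calls at the core or at chr9:408912-408967. Between rco1Δ and rsc1Δ 37 member probes passed limma's test, which is 48.7% of the members against 62.1% of all probes. Of these, 28 were higher in rco1Δ (36.8% of members, 28.9% of all probes) and 9 lower (11.8% of members, 33.2% of all probes). No outlier test of single arrays was run, since each group held 3.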

How the results depend on the processing

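Member probes called numbered 4 in rsc2Δ against wild type, and 0 with plain background subtraction, normexp, loess, the value table, equal array spread or scan as a fixed block, while rsc2Δ stayed above wild type at the core less the flanks (2.60) with 1.94 under plain subtraction, 1.65 under normexp, 0.90 under loess, 1.81 in the value table and 2.32 at equal spread. In the same order of settings the calls between rsc1Δ and rsc2Δ, 6 in the first place, were 2, 1, 0, 0 and 0, and those between rco1Δ and wild type, 39 at first, were 14, 15, 13 and 13 for the first 4 settings and 24 with probes well above background. Between rco1Δ and rsc1Δ, 37 at first, they were 19, 16, 14 and 18, and 21 with probes well above background.

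Leaving out 1 array gave between 3 and 3 calls in rsc2Δ against wild type, 0 and 0 in rsc1Δ, 32 and 41 in rco1Δ, 3 and 5 between rsc1Δ and rsc2Δ, and 31 and 38 between rco1Δ and rsc1Δ. The core less the flanks then ranged between 2.54 and 2.67 in rsc2Δ against wild type, −0.61 and −0.43 in rsc1Δ, and −0.24 and 0.13 in rco1Δ, which turned without rco1Δ replicate 2. The stretch less the flanks ranged between 0.16 and 0.31 in rsc2Δ, −0.12 and −0.09 in rsc1Δ, and 0.77 and 0.93 in rco1Δ. The core IP signal ranged between 2.71 and 2.89 in rsc2Δ against wild type, −0.58 and −0.35 in rsc1Δ and −0.67 and 0.42 in rco1Δ (0.034 with normexp), and the input between 0.04 and 0.26, −0.091 and 0.13, and 0.10 and 0.86. The core IP difference in rsc2Δ was 2.19 with plain subtraction and 1.88 with normexp, against 2.80. The channel alternatives were chosen after seeing the data.

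Of the single probes named, the rco1Δ minus wild type difference at chr9:407281-407340 turned from its sign to 0.27 with plain subtraction, and that of rco1Δ minus rsc1Δ to 0.97 with plain subtraction, 0.10 with normexp and 0.52 in the value table. At chr9:408203-408262 rco1Δ minus rsc1Δ turned to −0.12 with plain subtraction, −0.10 with loess, −2.14 in the value table and −2.07 at equal spread. The cause was not tested.

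Of 18 same-numbered pairs of arrays, 2 had a correlation over 0.1 between their deviations from the strain means. Pairs of different number were not compared, so these values cannot decide whether the numbers pair the arrays. The rsc1Δ and rsc2Δ arrays of equal number shared a scan in each case. With the replicate block the calls were 3 in rsc2Δ against wild type, 0 in rsc1Δ, 37 in rco1Δ, 5 between rsc1Δ and rsc2Δ, and 34 between rco1Δ and rsc1Δ. Dim IP limits the troughs: the IP was not well above background on all 3 arrays at 19 member probes in rsc2Δ, 15 in rsc1Δ, 13 in rco1Δ and 14 in wild type. At 2, 5, 10 and 0 of these the input was also not well above background on all 3 arrays, so that the ratio there is not bounded on either side.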
